A study of Mus musculus with 20 samples.

Results

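The genes described here encode the contractile apparatus of the aortic smooth muscle cell and the factor that switches it on: Acta2, Myh11, Tagln, Cnn1, Smtn, Lmod1, Actg2, Des, Mylk and Myocd. They were chosen by symbol, and every probe set annotated with exactly 1 gene symbol was taken where that symbol was 1 of the 10. All 10 were on the array, as 10 of 18193 named genes and as 17 of 45101 probe sets. Each gene was represented by its brightest probe set, the one with the highest mean over all arrays. A level is log2 of the signal plus 72, a log2 step of 1 being a doubling of that sum.

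Messenger RNA was measured in aortas of adult mice after the nuclear receptor PPARγ had been activated with a drug or interfered with by a mutation. Every array, 20 in all, was hybridized with the RNA of 8 pooled aortas, so a replicate is a pool, labelled A, B or C within its group. C57BL/6J mice received rosiglitazone, an insulin-sensitizing drug of the thiazolidinedione class and a PPARγ agonist, in the food: 3 mg/kg/day for 2 days (3 arrays), 3 mg/kg/day for 14 days (3 arrays), 10 mg/kg/day for 2 days (3 arrays) or 10 mg/kg/day for 14 days (2 arrays). Their controls ate standard chow without the drug (3 arrays). In a separate experiment, mice with the P465L form of PPARγ, which the labels call dominant negative, knocked into the gene's own locus (P465L, 3 arrays) were set against wild-type littermates (WT, 3 arrays). The knock-in is not limited to one cell type. The sources used here give neither the strain background of the littermates nor an age beyond adult.

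Smooth muscle contracts when calcium-activated myosin light chain kinase phosphorylates the regulatory light chain of myosin, which then pulls on actin filaments. In the artery wall these filaments carry tone, and the genes that encode them are the usual marks of a contractile rather than a proliferating, matrix-making smooth muscle cell. Most of them are switched on by serum response factor (SRF), which binds the CArG box, a run of A and T between CC and GG, together with its coactivator myocardin.

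The promoters of Acta2, Cnn1 and Lmod1 are printed because the CArG box is the sequence by which such genes are known to be switched on. Each is the stretch of 300 bases in RefSeq's GRCm38.p6 table from 250 before to 50 after the gene's start, 5′ to 3′ on the gene's strand, with CArG-like matches in capitals. The Acta2 window is chr19:34255324-34255623 on the minus strand. The Cnn1 window is chr9:22099003-22099302 on the plus strand. The Lmod1 window is chr1:135324563-135324862 on the plus strand.
Acta2: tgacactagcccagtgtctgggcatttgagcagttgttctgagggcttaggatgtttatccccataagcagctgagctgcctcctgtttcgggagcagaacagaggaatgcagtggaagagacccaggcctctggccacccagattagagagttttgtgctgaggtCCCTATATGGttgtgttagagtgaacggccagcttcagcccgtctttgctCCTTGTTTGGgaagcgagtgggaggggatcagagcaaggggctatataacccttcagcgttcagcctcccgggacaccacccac
Cnn1: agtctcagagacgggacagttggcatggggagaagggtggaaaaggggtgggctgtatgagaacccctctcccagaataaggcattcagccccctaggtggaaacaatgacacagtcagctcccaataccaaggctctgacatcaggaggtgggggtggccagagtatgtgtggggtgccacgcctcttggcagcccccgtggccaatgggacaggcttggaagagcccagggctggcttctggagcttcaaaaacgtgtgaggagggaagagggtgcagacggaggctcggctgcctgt
Lmod1: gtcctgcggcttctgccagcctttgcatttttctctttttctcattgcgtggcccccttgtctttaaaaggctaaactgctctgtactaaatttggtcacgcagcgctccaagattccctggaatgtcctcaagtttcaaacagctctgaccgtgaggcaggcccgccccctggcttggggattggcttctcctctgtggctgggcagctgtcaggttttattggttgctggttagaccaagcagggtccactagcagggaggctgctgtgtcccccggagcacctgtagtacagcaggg
Of the 10 genes, 6 had a window in the table: Acta2, Cnn1, Smtn, Lmod1, Des and Mylk. The letters searched were CC, then 6 bases of A or T, then GG, which read the same on both strands. With the core all A and T, 0 of the 6 windows held a match, against 1.81% of the 27025 genes in the table. With at most 1 G or C in the core, 1 of the 6 (16.7%) held a match, against 11.3% of all genes. That window was Acta2's, with CCCTATATGG from 84 and CCTTGTTTGG from 34 bases before the start in RefSeq's table. Whether transcription begins at that start was not checked here. A match is a run of letters and not a measured binding site.

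All 10 genes passed the filter on low values (a mean log2 level of 8.73 or more), as 10 of 11076 tested genes, and so did 16 of their 17 probe sets, the dimmer Des set being the exception. Arrays of 1 group correlated at r = 0.964 to 0.988 over the genes tested. Rbp7, a retinol-binding protein known to respond to PPARγ, was higher with rosiglitazone than in chow. In the average of the rosiglitazone groups the log2 fold change was 1.97 ± 0.34 (SE) (limma, adjusted p = 0.0197). Untreated WT was also higher than chow, by 1.48 (adjusted p = 0.0385), so the Rbp7 level is no mark of the drug alone. In WT against chow, strain background and experiment cannot be told apart from the group. For Acaa1b and Angptl4, every rosiglitazone pool was above every chow pool. Acaa1b ran from 10.71 to 13.17 with rosiglitazone, against 9.46 to 10.69 in chow and 10.54 to 11.27 in WT. Angptl4 ran from 11.33 to 12.84 with rosiglitazone, against 10.61 to 11.31 in chow and 12.03 to 12.35 in WT. For Pparg, the targeted gene, P465L against WT gave a log2 fold change of -0.07 ± 0.39 (SE) (limma, adjusted p = 0.981), and where its probes lie relative to the mutated base was not checked here. The precision of every value is limited by the number of arrays, and p-values measure the spread between pools, not between mice. In whole aortas, fewer smooth muscle cells and less RNA per cell cannot be told apart.

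None of the 10 contractile genes passed the test in any of the 10 comparisons made (limma with Benjamini-Hochberg adjustment over 11076 genes). The lowest adjusted p was 0.0756, for Lmod1 in WT against chow. The range of the group means ran from 0.2 on the log2 scale for Mylk to 0.67 for Myocd. The spread between pools of a group, as a residual SD, was 0.074 for Mylk, between 0.154 and 0.161 for Acta2, Cnn1, Tagln and Myh11, 0.17 for Actg2, 0.188 for Smtn, 0.226 for Lmod1, 0.231 for Des and 0.258 for Myocd, against a median of 0.19 over all tested genes. The SD of the 7 group means was 0.069 to 0.215 for the 10 genes, against a median of 0.154 over all tested genes. With the 7 group means of each gene put in order, 4 of 60 pairs of neighbours stood apart by more than that gene's residual SD. These were Cnn1 between rosiglitazone 3 mg for 2 days and for 14 days, Smtn between rosiglitazone 10 mg for 14 days and P465L, Lmod1 between rosiglitazone 3 mg for 2 days and chow, and Actg2 between rosiglitazone 10 mg for 14 days and WT. WT had the highest group mean for 6 of the genes (Acta2, Myh11, Tagln, Cnn1, Des and Mylk), chow for Smtn, Lmod1 and Actg2, and P465L for Myocd.

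**Figure D1:**
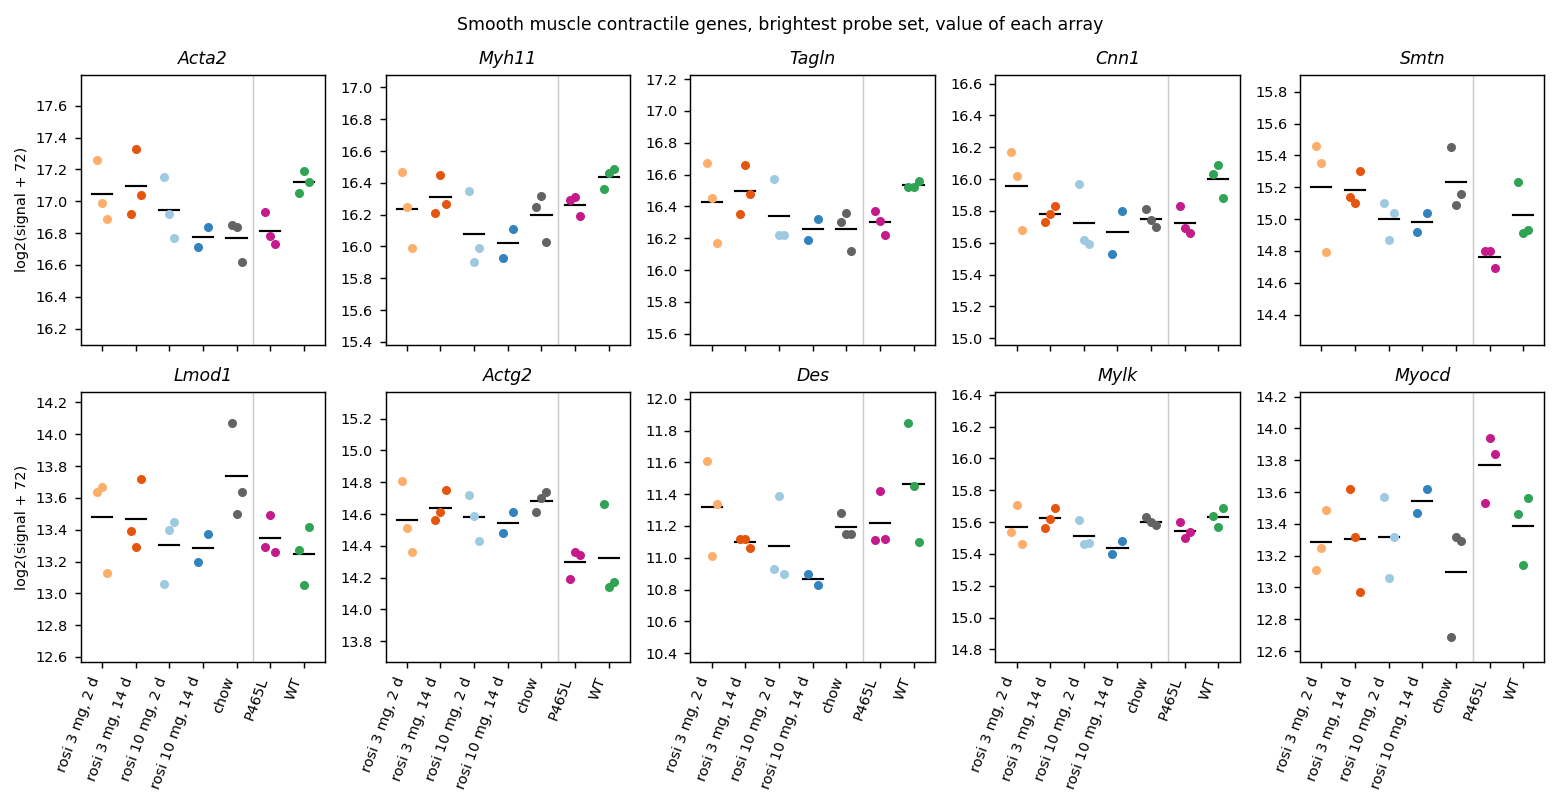
Each panel shows 1 gene, with a point for each array's log2 level (vertical axis, log2 of the signal plus 72) and a bar for the group mean, over the 7 groups (horizontal axis). Every panel spans the same height on the log2 scale, and for Acta2, Myh11, Tagln and Cnn1 the 3 P465L points lie below the 3 WT points.

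With rosiglitazone, none of the actin and myosin genes passed the test against chow. For Acta2, which encodes the smooth muscle α-actin of the thin filament, the levels were 17.26, 16.99 and 16.89 at 3 mg for 2 days, 16.92, 17.33 and 17.04 at 3 mg for 14 days, 17.15, 16.92 and 16.77 at 10 mg for 2 days and 16.71 and 16.84 at 10 mg for 14 days, against 16.85, 16.84 and 16.62 in chow. All 6 pools at 3 mg were above all 3 chow pools, while the pools at 10 mg overlapped them. At 3 mg for 2 days the log2 fold change against chow was 0.28 (95% interval 0.02 to 0.53, limma, adjusted p = 0.526). At 3 mg for 14 days it was 0.33 ± 0.12 (SE; 95% interval 0.07 to 0.58, adjusted p = 0.497). These 2 intervals leave out 0 before adjustment for the number of genes tested. For the average of the 4 groups it was 0.20 (95% interval -0.01 to 0.40, adjusted p = 0.367). This brightest Acta2 set is of the kind that can also bind other transcripts, so related actins may add to it. A dimmer Acta2 set (1444105_at) went the other way, by -0.25 in the average (limma over 19370 probe sets, adjusted p = 0.23). It differed by -0.33 at 10 mg for 2 days and by -0.34 at 10 mg for 14 days (adjusted p = 0.179 and 0.294). The dimmest set (1456658_at) differed by 0.15 in the average, so the direction for Acta2 depends on the probe set read. Myh11, the smooth muscle myosin heavy chain and the motor of the thick filament, averaged 16.24 ± 0.24, 16.31 ± 0.13 and 16.08 ± 0.24 (SD, n = 3 each) at 3 mg for 2 days, 3 mg for 14 days and 10 mg for 2 days, and 16.02 ± 0.13 (SD, n = 2) at 10 mg for 14 days, against 16.20 ± 0.15 (SD, n = 3) in chow. Its average log2 fold change was -0.04 (95% interval -0.25 to 0.17, limma, adjusted p = 0.917). Actg2, the second smooth muscle actin and the main one of gut and bladder, had levels of 14.36 to 14.81 over the 11 rosiglitazone pools, against 14.61, 14.70 and 14.74 in chow, with an average log2 fold change of -0.10 (adjusted p = 0.717).

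Lmod1, a leiomodin that starts new filaments, had levels of 13.64, 13.67 and 13.13 at 3 mg for 2 days, 13.39, 13.29 and 13.72 at 3 mg for 14 days, 13.06, 13.40 and 13.45 at 10 mg for 2 days and 13.20 and 13.37 at 10 mg for 14 days, against 14.07, 13.50 and 13.64 in chow. All 5 pools at 10 mg lay below all 3 chow pools, and chow pool A stood above every other. The average log2 fold change was -0.36 ± 0.13 (SE; 95% interval -0.63 to -0.08), which did not pass the test (limma, adjusted p = 0.217). At 10 mg it was -0.44 ± 0.16 after 2 days and -0.46 ± 0.18 after 14 days (SE; adjusted p = 0.21 and 0.311). Tagln (transgelin) and Cnn1 (calponin), which bind actin along the filament, had average log2 fold changes of 0.12 (95% interval -0.08 to 0.32) and 0.03 (-0.17 to 0.23). Smtn, smoothelin, a cytoskeletal protein of contractile smooth muscle, had one of -0.14 (95% interval -0.38 to 0.09). The adjusted p was 0.626, 0.927 and 0.613 for Tagln, Cnn1 and Smtn (limma).

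Des, desmin, the intermediate filament protein that ties the contractile units together, had 11.61, 11.01 and 11.34 at 3 mg for 2 days, 11.12, 11.12 and 11.06 at 3 mg for 14 days, 10.93, 11.39 and 10.90 at 10 mg for 2 days and 10.90 and 10.83 at 10 mg for 14 days, against 11.28, 11.15 and 11.15 in chow. Its pools after 14 days lay below chow at both doses, by a log2 fold change of -0.33 at 10 mg (limma, adjusted p = 0.504). Desmin is also a protein of skeletal muscle, whose markers varied widely between pools: in this comparison 0 of 13 tested markers were higher, with a median log2 fold change of -1.06 and 0 of 13 called. Their mean log2 level was 8.93 and 8.37 in the pools at 10 mg for 14 days, against 8.64, 9.09 and 11.57 in chow, and their part in the Des values was not tested. Myocd, the coactivator of SRF, was the one member besides Acta2 with values above chow without overlap: 13.47 and 13.62 at 10 mg for 14 days, against 12.69, 13.32 and 13.29 in chow. That log2 fold change was 0.44 ± 0.20 (SE; 95% interval 0.02 to 0.87, limma, adjusted p = 0.371). For the average of the 4 groups it was 0.26 (95% interval -0.04 to 0.57, adjusted p = 0.434).

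Counted over the 10 genes, 6 were above and 4 below chow at 3 mg for 2 days, 6 above and 4 below at 3 mg for 14 days, 3 above and 7 below at 10 mg for 2 days, and 2 above and 8 below at 10 mg for 14 days. The share of all tested genes below chow was 54.5%, 53.1%, 52.3% and 54% in that order. The medians of the log2 fold changes of the 10 genes were 0.08, 0.03, -0.10 and -0.15, beside -0.02, -0.01, -0.01 and -0.02 over all tested genes. In the average of the 4 groups 4 genes were above and 6 below chow, with a median of -0.05, and 55% of all tested genes were below. With quantile normalization the median at 3 mg for 2 days was -0.128. These comparisons share the chow pools.

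None of the 10 genes was called in any of the 4 (limma), where 0%, 0%, 0.506% and 0.271% of all tested genes were, nor in the average, where 0.433% were. At an unadjusted p under 0.05 stood 1 of the 10 at 3 mg for 2 days (8.82% of all tested genes), 1 at 3 mg for 14 days (8.27%), 1 at 10 mg for 2 days (15.2%), 2 at 10 mg for 14 days (12.6%) and 1 in the average (14.2%). Pools that did not overlap with chow were seen for Acta2 (higher) at 3 mg for 2 days, where 5.08% of tested genes were higher and 6.92% lower in this way. At 3 mg for 14 days they were seen for Acta2 (higher) and Des (lower), against 6.11% higher and 7.49% lower. At 10 mg for 2 days they were seen for Lmod1 (lower), against 10.2% higher and 13.5% lower. At 10 mg for 14 days, with 2 pools, they were seen for Myocd (higher) and for Lmod1, Des, Mylk and Smtn (lower), against 14.8% higher and 20.3% lower. Over all 11 rosiglitazone pools together, 0 of the 10 genes were wholly above or below chow, against 0.804% above and 1.26% below. Adipocyte markers had 7 of 8 values above chow in the average, with a median log2 fold change of 0.79 and 0 called, and their part in these values was not tested.

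**Figure D2:**
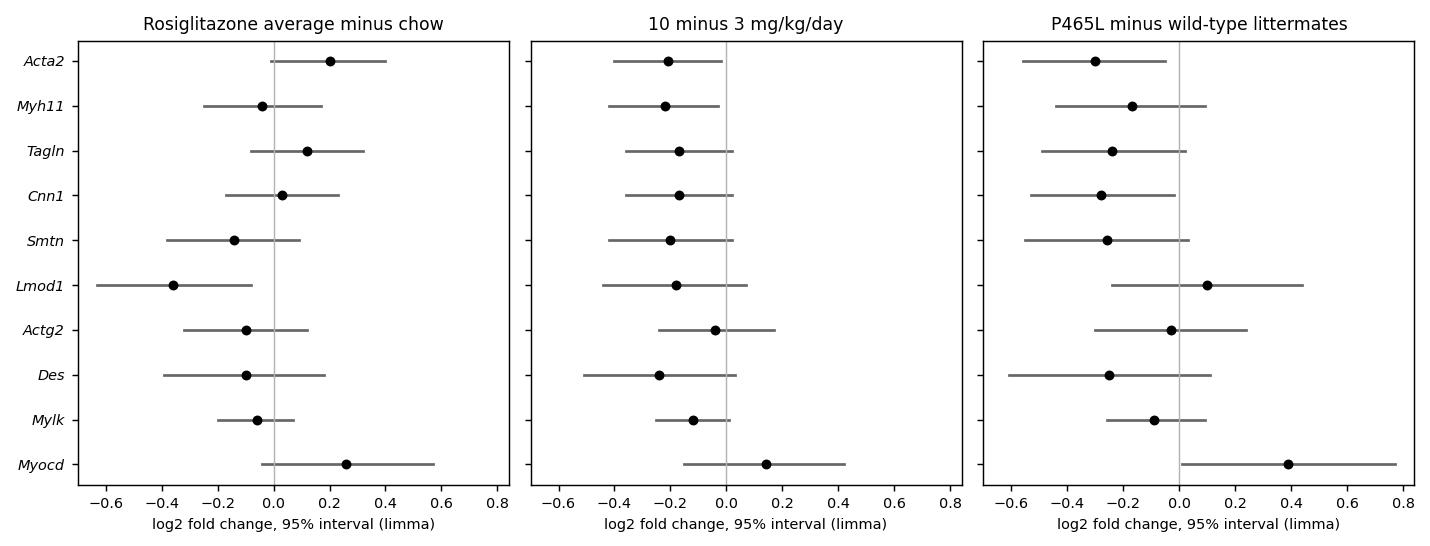
Log2 fold changes (horizontal axis) with 95% intervals from limma for the 10 genes (vertical axis) in the average of the rosiglitazone groups minus chow, 10 minus 3 mg/kg/day, and P465L minus WT. Of the 10 genes, 9 lie below 0 in the middle panel and 8 in the right one, and none passed the test after adjustment.

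Set against 3 mg, 10 mg gave lower values for 9 of the 10 genes, the exception being Myocd. The log2 differences were -0.21 for Acta2 (95% interval -0.40 to -0.02), -0.22 for Myh11 (-0.42 to -0.03), -0.17 for Tagln, -0.17 for Cnn1, -0.20 for Smtn, -0.18 for Lmod1, -0.04 for Actg2, -0.24 for Des, -0.12 for Mylk and 0.14 for Myocd. Their median was -0.18, beside -0.01 over all tested genes, and 51.8% of those genes were lower. Under other settings of the processing the median ran from -0.202 to -0.063. Of the 7 other probe sets, 3 had the sign of their gene's brightest set, so the direction partly depends on the probe set read. None of the 10 was called, as were 0% of all tested genes, and 2 had an unadjusted p under 0.05, against 12.7% of all. Over the 5 pools at 10 mg and the 6 at 3 mg, 0 of the 10 did not overlap, against 0.433% higher and 0.596% lower. The adjusted p was 0.36 for Acta2 and 0.357 for Myh11 (limma). Genes at the bright end of the array sat lower at 10 mg as well: of 718 other tested genes with a mean log2 level of 14 or more, 70.6% were lower and the median difference was -0.08. Markers of other cell types were lower at 10 mg too, in 11 of 11 endothelial (median -0.13), 9 of 10 fibroblast (-0.13) and 9 of 10 macrophage genes (-0.07), while 8 of 8 cardiac muscle markers were higher (0.35), with 0 called in each list. The part of the bright level and of these markers in the values of the contractile genes was not tested. Between 14 and 2 days, the log2 differences ran from -0.21 for Des to 0.12 for Myocd with an adjusted p of 0.999 for each (limma), and 0% of all tested genes were called. They were negative for 7 of the 10, against 50.3% of all tested genes and 68.4% of the 718 bright ones. Of the 10, 0 had an unadjusted p under 0.05 (4.19% of all) or pools that did not overlap (0.117% higher and 0.181% lower of all). The interaction of dose and time called 0 of the 10 genes and 0% of all tested genes, with values from -0.22 to 0.21, 7 of them negative (50.9% of all) and 0 with an unadjusted p under 0.05 (4.39% of all).

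In P465L aortas, 5 of the 10 genes had all 3 pools below all 3 WT pools: Acta2, Myh11, Tagln, Cnn1 and Smtn, which encode the filament and its associated proteins. The share of all tested genes that were lower in this way was 6.99%, and 7.36% were higher. Acta2 had 16.93, 16.78 and 16.73 in P465L, against 17.05, 17.19 and 17.12 in WT. Myh11 had 16.29, 16.31 and 16.19 in P465L, against 16.36, 16.46 and 16.49 in WT. Tagln had 16.37, 16.31 and 16.22 in P465L, against 16.52, 16.52 and 16.56 in WT. In each of these genes the highest P465L pool was below the lowest WT pool, and the groups did not overlap. Cnn1 had 15.83, 15.69 and 15.66 in P465L, against 16.03, 16.09 and 15.88 in WT. Smtn had 14.80, 14.80 and 14.69 in P465L, against 15.23, 14.91 and 14.93 in WT.

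None of these differences passed the test, which 0.0181% of all tested genes did (limma), and 3 of the 10 genes (Acta2, Cnn1 and Myocd) had an unadjusted p under 0.05, against 7.41% of all. The log2 fold change was -0.30 ± 0.12 (SE; 95% interval -0.56 to -0.05) for Acta2 (limma, adjusted p = 0.647). It was -0.28 (95% interval -0.53 to -0.02) for Cnn1 (adjusted p = 0.651), -0.26 (-0.55 to 0.03) for Smtn, -0.24 (-0.49 to 0.02) for Tagln and -0.17 (-0.44 to 0.09) for Myh11. The intervals of Acta2 and Cnn1 leave out 0 before adjustment for the number of genes tested. Des had a log2 fold change of -0.25, Mylk of -0.09, Actg2 of -0.03 and Lmod1 of 0.10. Myocd ran the other way, with 13.53, 13.94 and 13.84 in P465L, against 13.46, 13.14 and 13.56 in WT. P465L pool A lay between the WT pools, and the log2 fold change was 0.39 ± 0.18 (SE; 95% interval 0.01 to 0.77, limma, adjusted p = 0.671). Over the 10 genes 8 were lower and the median was -0.21, beside 48.9% and 0.01 over all tested genes. Adipocyte markers were lower in P465L for 7 of 8 (median -0.53) and endothelial markers for 10 of 11 (-0.21, 3 of them without overlap). Fibroblast markers were lower for 8 of 10 (-0.09), while macrophage markers were higher for 8 of 10 (0.06). Of the cardiac muscle markers 4 were higher and 4 lower (0.00). In each list 0 were called, and the part of these markers in the values of the contractile genes was not tested.

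The values of bright genes in general also sat lower in the P465L pools. Of the 718 other genes with a mean log2 level of 14 or more, 68.8% were lower in P465L than in WT, 18.8% were lower without overlap of the pools, and the median log2 fold change was -0.07. Their median level was 14.740, 14.659 and 14.654 in the P465L pools, against 14.750, 14.749 and 14.707 in the WT pools, and P465L pool A lay within the range of the WT pools. With each array shifted to 1 common median of these genes, the log2 fold changes were -0.25 for Acta2, -0.22 for Cnn1, -0.21 for Smtn, -0.19 for Tagln and -0.12 for Myh11. With quantile normalization, which gives all arrays 1 distribution, they were -0.02 for Acta2, 0.00 for Tagln, 0.05 for Myh11, -0.14 for Cnn1 and -0.17 for Smtn, and the median over the 10 genes was 0.019. The cause of these shifts was not tested. The ratio of 3′ to 5′ signal of Gapdh, a measure of RNA integrity, was 0.83 to 0.93 in P465L, against 0.80 to 0.83 in WT, and its part in the differences was not tested.

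The 7 other probe sets of these genes did not all follow the brightest. For P465L minus WT, 3 of the 7 had the sign of their gene's brightest set. The dimmer Myh11 set (1418122_at) had 11.30, 11.52 and 11.60 in P465L, against 11.26, 10.75 and 10.98 in WT, higher without overlap where the brighter set was lower (log2 difference 0.48, limma over 19370 probe sets, adjusted p = 0.68). The dimmer Myocd set (1425808_a_at) had 9.33, 9.49 and 9.42 in P465L, against 9.66, 9.67 and 9.63 in WT, lower without overlap where the brighter set was higher (-0.24). The dimmer sets of Acta2 differed by 0.10 and -0.11 between P465L and WT. The dimmer Des set, which was under the filter on low values, differed by 0.19 where the brighter set differed by -0.25. For Myh11, Myocd, Acta2 and Des the direction between P465L and WT therefore depends on the probe set read. Which of a gene's transcripts each set binds was not analysed here.

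**Figure D3:**
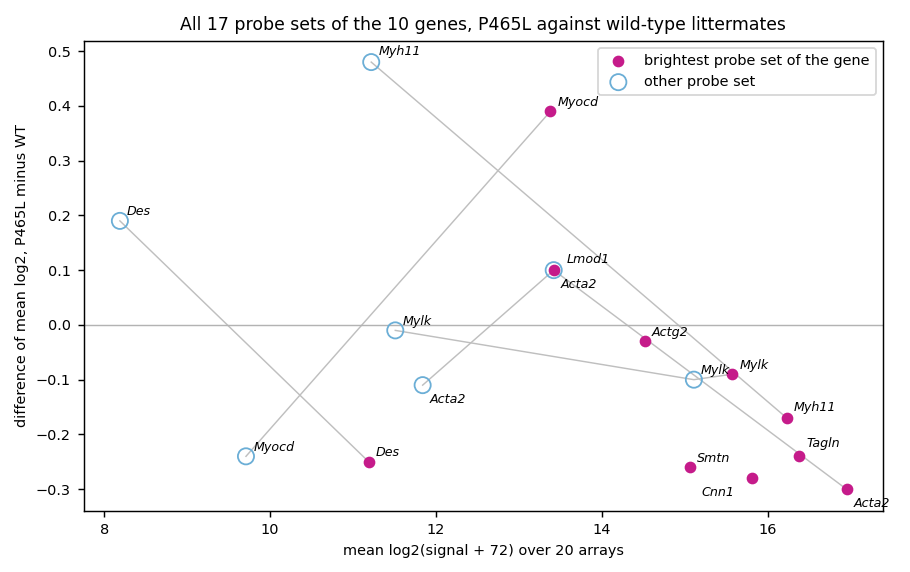
The 17 probe sets of the 10 genes by their mean log2 level over the 20 arrays (horizontal axis) and their log2 difference between P465L and WT (vertical axis), with grey lines joining the sets of 1 gene. The brightest sets are filled and mostly lie below 0, while the lines of Myh11, Myocd, Des and Acta2 cross 0.

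Mylk gave the one probe set that passed a test. Mylk encodes the myosin light chain kinase whose activity starts contraction, and its gene makes more than one product, among them a long and a short kinase and telokin. It had 3 probe sets, and when each probe set was tested by itself the third (1425504_at) was called lower with rosiglitazone. It had 11.19, 11.64 and 11.33 at 3 mg for 2 days, 11.61, 11.34 and 11.48 at 3 mg for 14 days, 11.39, 11.23 and 11.24 at 10 mg for 2 days and 11.31 and 11.20 at 10 mg for 14 days, against 12.03, 11.73 and 11.78 in chow. All 11 rosiglitazone pools were below all 3 chow pools, as in 1.21% of the 19370 probe sets tested. The log2 fold change was -0.50 ± 0.10 (SE) for the average of the 4 groups (limma, adjusted p = 0.0341) and -0.56 ± 0.13 (SE) at 10 mg for 2 days (adjusted p = 0.0438). The call at 10 mg for 2 days was lost in each of the 6 settings that left out 1 pool (adjusted p 0.0567 to 0.221) and in 5 of 10 other settings. It was the one called among the 16 tested sets of these genes in both comparisons, where 0.48% and 0.661% of all probe sets were called. In the average without chow pool A the value was -0.41 with an adjusted p of 0.224, and 7 of the 14 settings that left out 1 pool still called it.

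The other Mylk sets gave smaller differences. The brightest (1425506_at) averaged 15.57 ± 0.12, 15.62 ± 0.07 and 15.51 ± 0.08 (SD, n = 3 each) at 3 mg for 2 days, 3 mg for 14 days and 10 mg for 2 days, and 15.44 ± 0.06 (SD, n = 2) at 10 mg for 14 days, against 15.60 ± 0.02 (SD, n = 3) in chow. Its average log2 fold change was -0.06 (95% interval -0.20 to 0.07, limma, adjusted p = 0.719). The second (1425505_at) differed by -0.03. The third set had 11.70, 11.48 and 11.69 in P465L, against 11.74, 11.51 and 11.64 in WT, 2 groups that overlapped. Untreated WT was itself lower than chow by 0.22 in this set.

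**Figure D4:**
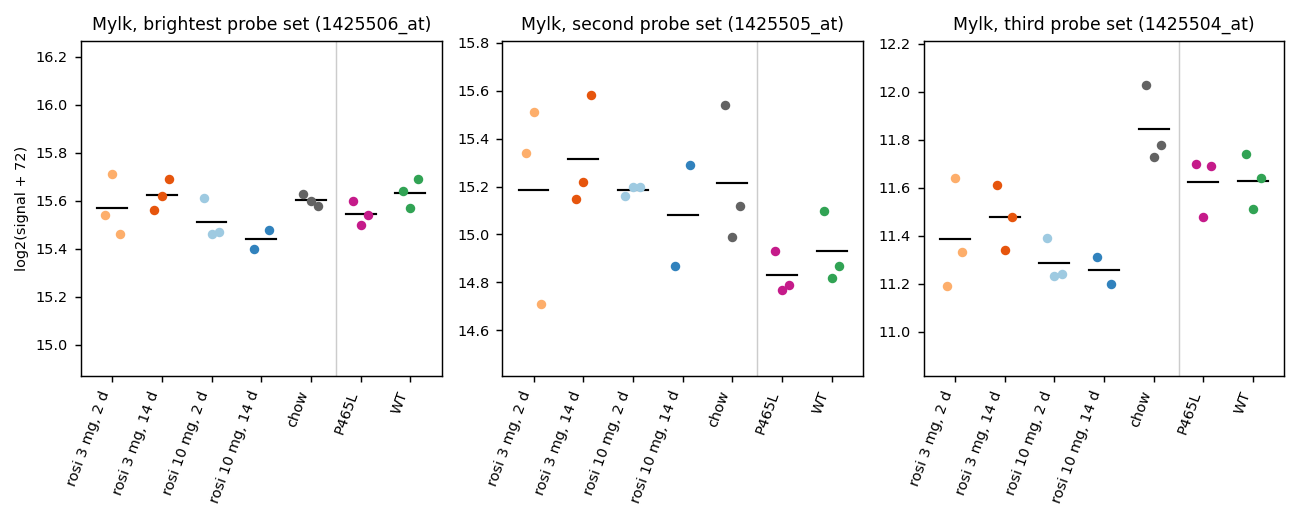
The 3 Mylk probe sets, with a point for each array's log2 level (vertical axis, log2 of the signal plus 72, the same height in each panel) and a bar for the group mean, over the 7 groups (horizontal axis). In the right panel the 11 rosiglitazone points lie between 11.19 and 11.64, below the 3 chow points at 11.73 to 12.03.

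The untreated groups of the 2 experiments, WT and chow, were also compared. Here strain background and experiment cannot be told apart from the group. Array batches are not given in the sources used here, so their part could not be tested. Of all tested genes 6.5% were called, and 0 of the 10 contractile genes (limma). At an unadjusted p under 0.05 stood 4 of the 10, against 22.5% of all. Of the 10 genes 3 were lower in WT than in chow, against 56% of all, and the median was 0.24, beside -0.04 over all. That median was -0.099 with the mean of a gene's probe sets and 0.032 with quantile normalization. Acta2, Tagln, Cnn1 and Myh11 were higher in WT without overlap and Lmod1 was lower, where 11.8% of tested genes were higher and 16% lower in this way. Of the 718 other bright genes, 27.2% were higher and 13.1% lower without overlap, with a median of 0.06. The ratio of 3′ to 5′ signal of Gapdh was 0.80 to 0.83 in WT, against 0.90 to 0.96 in chow. For Actb the ratio overlapped, at 1.18 to 1.22 in WT and 1.19 to 1.21 in chow. Adipocyte markers were higher in WT for 7 of 8 (2 called), fibroblast markers for 8 of 10 (1 called) and macrophage markers lower for 7 of 10 (2 called), and the part of these measures in the values was not tested. The log2 fold changes were 0.35 for Acta2 (95% interval 0.09 to 0.60, limma, adjusted p = 0.088), 0.28 for Tagln, 0.25 for Cnn1 and 0.24 for Myh11. Lmod1 had 13.27, 13.05 and 13.42 in WT, against 14.07, 13.50 and 13.64 in chow, a log2 fold change of -0.49 (adjusted p = 0.0756). Actg2 had 14.66, 14.14 and 14.17 in WT, against 14.61, 14.70 and 14.74 in chow, a log2 fold change of -0.36 (adjusted p = 0.0992), and WT pool A stood with the chow pools. Of the 7 other probe sets, 1 had the sign of its gene's brightest set.

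Skeletal muscle markers varied widely between the same pools. All 13 tested skeletal muscle markers were higher in WT than in chow (median log2 fold change 1.91, 0 called), and 12 of 13 were lower in P465L than in WT (median -1.26, 0 called). Their mean log2 level was 12.16, 10.01 and 9.26 in P465L, 11.26, 12.74 and 10.66 in WT and 8.64, 9.09 and 11.57 in chow. Des, the member that skeletal muscle also makes in quantity, had 11.11, 11.42 and 11.12 in P465L and 11.85, 11.45 and 11.10 in WT. The part of these markers in the values of the contractile genes was not tested.

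Within groups, the levels of 4 of the genes went together from pool to pool. The 4 were picked for their high values in these same data. Acta2, Myh11, Tagln and Cnn1 had Pearson's r of 0.715 to 0.969 in their 6 pairs, computed on deviations from the group means over 20 arrays, with Spearman's rank correlations of 0.685 to 0.958. Without the points of the 2 pools farthest from the median (rosiglitazone 3 mg for 2 days A and 10 mg for 2 days A), r was 0.574 to 0.948. The group means were not recomputed, so these 2 pools still enter through them. Relative to the median of the bright genes on each array it was 0.49 to 0.94. Smtn had 0.718 with Cnn1, 0.676 with Lmod1 and 0.568 with Tagln, but 0.325 with Acta2. Lmod1 and Acta2 were close to 0. Myocd ran from -0.506 to 0.045 against the other 9, and Des and Mylk had -0.498. Over all 45 pairs, 33 were above 0 and the median was 0.248. These values describe pools that share an array and its scaling, and no test was made of them.

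**Figure D5:**
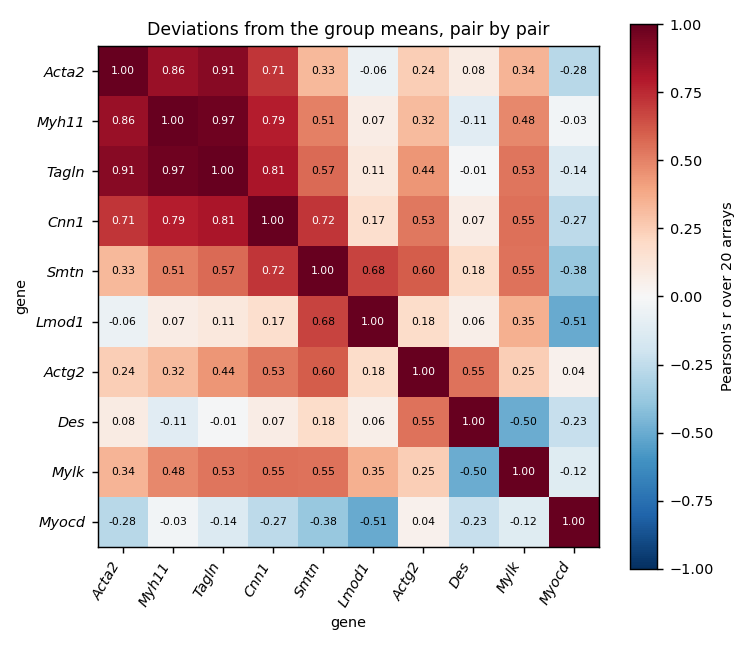
Pearson's r for each pair of the 10 genes (both axes) over 20 arrays, computed on deviations from the group means, with the colour scale from -1 to 1. The block of high values at the upper left is Acta2, Myh11, Tagln and Cnn1 (0.715 to 0.969), and the row of Myocd holds values from -0.506 to 0.045.

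The tested genes outside the set whose levels ran closest to the mean of the 10 over the 20 arrays were Cst3 (r = 0.891), Asb2 (0.888), Rpl19 (0.883), Kdelr3 (0.877), Ramp1 (0.877) and Ap2s1 (0.871). For deviations from the group means they were Itgb5 (r = 0.949), Hcfc1r1 (0.945), Csrp2 (0.937), Ramp1 (0.931), Trnau1ap (0.927) and Asb2 (0.927). Cst3 and Rpl19 are genes that most cells use, encoding cystatin C and a ribosomal protein, while Csrp2 encodes a LIM protein of smooth muscle and Ramp1 a receptor partner. All these values come from arrays that share their scaling.

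Of 24 tested contractile partners (light chains, tropomyosins, filamin, vinculin and the like), 11 were above and 13 below chow in the average of the rosiglitazone groups, with a median log2 fold change of 0.00 and 0 called. The smallest p belonged to Fhl1, a LIM protein of muscle, at 0.16 (limma, adjusted p = 0.328). At 10 against 3 mg, 5 partners were higher and 19 lower, with a median of -0.09 and 0 called. The smallest p belonged to Tpm1, a tropomyosin that lies along the actin filament, at -0.26 (adjusted p = 0.254). In P465L against WT, 10 were higher and 14 lower, with 5 lower without overlap (6.99% of all tested genes and 18.8% of the bright ones), a median of -0.03 and 0 called. The smallest p belonged to Myl9, the regulatory light chain that the Mylk kinase phosphorylates. It averaged 16.57 ± 0.11 in P465L and 16.89 ± 0.04 in WT (SD, n = 3 each), a log2 fold change of -0.32 (limma, adjusted p = 0.647).

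Of 21 tested genes of the SRF and myocardin axis, 7 were above and 14 below chow in the average of the rosiglitazone groups (median -0.07, 0 called). Heyl, a target of Notch signalling, had the smallest p at -0.33 (limma, adjusted p = 0.138). In P465L against WT, 11 were higher and 10 lower (median 0.01, 0 called), with Elk1, an SRF partner that competes with myocardin, at -0.83 (adjusted p = 0.493). In WT against chow, where 6.5% of all tested genes were called, 6 were higher and 15 lower, and 3 fell: Tgfb1, a growth factor that induces contractile genes, by 0.75 on the log2 scale (adjusted p = 0.00876), Notch3, the receptor of arterial smooth muscle, by 0.51 (adjusted p = 0.00709), and Mrtfa, a relative of myocardin, by 0.48 (adjusted p = 0.0421).

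Among 17 tested genes that set light chain phosphorylation, such as the myosin phosphatase subunits and calcium and potassium channels, 6 were above and 11 below chow with rosiglitazone (median -0.04, 0 called), with Myl12a, a regulatory light chain, at 0.26 (limma, adjusted p = 0.135). In P465L against WT, 6 were higher and 11 lower (median -0.02, 0 called), with Ppp1r12b, a targeting subunit of the phosphatase, at -0.20 (adjusted p = 0.673). In WT against chow, 4 were higher and 13 lower, and 1 of the 17 was called, a share near the 6.5% of all tested genes: Kcnma1, the pore of the large calcium-activated potassium channel, which fell by 0.59 on the log2 scale (adjusted p = 0.0246).

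Genes linked to the synthetic, matrix-making state of smooth muscle were above chow for 12 of 13 tested in the rosiglitazone average, with a median log2 fold change of 0.15 beside -0.02 over all tested genes and 0 called. By group the median was 0.19 at 3 mg for 2 days, 0.19 at 3 mg for 14 days, 0.14 at 10 mg for 2 days and 0.01 at 10 mg for 14 days. Between 14 and 2 days all 13 were lower (median -0.09, 0 called). Of all tested genes 50.3% were lower, and of the 718 other bright genes 68.4%. Fibroblast markers were lower in this comparison as well, for 10 of 10 (median -0.09), while 7 of 8 cardiac muscle markers were higher (0.25). In the average, Ccn2, a matricellular growth factor, had the smallest p. It averaged 16.57 ± 0.18 (SD, n = 11) with rosiglitazone and 16.18 ± 0.16 (SD, n = 3) in chow, a log2 fold change of 0.38 ± 0.10 (SE; limma, adjusted p = 0.104). At 10 against 3 mg, 4 were higher and 9 lower (median -0.05), with Col1a1 at -0.34 (adjusted p = 0.23). In P465L against WT, 4 were higher and 9 lower (median -0.06), with Postn, periostin, at -0.29 (adjusted p = 0.453). None was called in either. Without overlap of the P465L and WT pools, 5 of the 13 were lower and 1 was higher. Of all tested genes 6.99% were lower and 7.36% higher in this way, and of the bright ones 18.8% and 2.92%.

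Of the paralogs of the 10 genes, 12 of 17 were tested. In the rosiglitazone average 9 were above and 3 below chow, with a median of 0.05 and 0 called, and Cnn2, a calponin of non-muscle cells, at -0.26 (limma, adjusted p = 0.223). In P465L against WT, 4 were higher and 8 lower (median -0.07, 0 called). Without overlap of the pools, 4 of the 12 were lower and 0 higher, against 6.99% and 7.36% of all tested genes. In WT against chow, 6 were higher and 6 lower, and 1 of the 12 was called, near the 6.5% of all tested genes: Cnn2 fell by 0.42 on the log2 scale (adjusted p = 0.0436).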

How the data were processed

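Messenger RNA of aorta pools was hybridized to Affymetrix mouse arrays, 20 in all. The deposited intensity values are linear signals per probe set, made by the authors with MAS5 per the submitters' processing notes; neither its version nor detection calls are given in the sources used here. In every array the mean after setting aside 2% of probe sets at each end was 1500, and array medians ran from 321.3 to 450.7. The part of this scaling in the levels of bright genes was not tested.

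Of 45101 probe sets, 34945 had 1 symbol, 932 several, 9160 none and 64 were controls. Symbols were checked through the Entrez ID (34741 found, 0 changed). The offset of 72 added before log2 is about the 20th percentile of the signals. Each gene took its brightest probe set, and the 11076 genes at or above the median of all probe set means (log2 8.73, signal 354) were tested. Group means were fitted to all 20 arrays in 1 model with limma 3.58.1 in R 4.3.3 (13 residual and 7.3 prior degrees of freedom, variance trend, two-sided, Benjamini-Hochberg, with a threshold of 0.05 on the adjusted p). Comparisons set each rosiglitazone group and the mean of the 4 against chow, 10 against 3 mg, 14 against 2 days and their interaction, P465L against WT, and WT against chow. Each probe set was also tested by itself, a test added after the data were seen. The fit was tested on simulated data. Python 3.11.15 and matplotlib 3.10.9 made tables and figures.

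Letters did not pair the arrays: deviations of same-letter arrays correlated at -0.301 to 0.358 (median 0.026, 57 pairs). The genes described, the gene lists and the settings were chosen with earlier results of these data known. From each list the text names the called genes (at most 4 by size) or, with none, the 1 of smallest p, and the 6 genes most like the mean of the 10 by each measure. The sources used here give no slide or scan batches, and probe sequences were not used.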

Additional observations from a re-analysis of the deposited data

How the results depend on the processing

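The 10 genes' log2 fold changes were recomputed 2020 times under other offsets, filters, normalizations, variance models and array sets, and 4 of these values passed the threshold, each in WT against chow. They were Actg2 with quantile normalization (-0.435, adjusted p = 0.0254), Actg2 with arrays shifted to 1 median of bright genes, a setting chosen after seeing the data (-0.398, adjusted p = 0.0386), Acta2 with only the WT and chow arrays fitted (0.347, adjusted p = 0.0379) and Actg2 without WT replicate A (-0.53, adjusted p = 0.0177). The number called in WT against chow was thus 1 in each of these, and 0 to 1 when 1 array was left out. A further 125 values, none of them called, changed sign. The median over the 10 genes was 0.019 for P465L against WT, -0.128 for rosiglitazone 3 mg for 2 days against chow and 0.032 for WT against chow with quantile normalization, against -0.206, 0.081 and 0.244 as reported. For WT against chow it was -0.099 with the mean of a gene's probe sets. The cause of these shifts was not tested. When 1 array was left out, the median ran from -0.219 to -0.121 for P465L against WT and from 0.157 to 0.247 for WT against chow. With the letter as a replicate block, the median for P465L against WT was -0.206 and 0 of the 10 genes were called in any comparison.

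The third Mylk probe set had a value of -0.507 to -0.438 in the rosiglitazone average under 10 other settings, 6 of which called it, and of -0.556 to -0.406 when 1 array was left out. Its adjusted p was 0.0526 with arrays shifted to the same median, 0.0508 with no level filter, 0.0616 with no variance trend and 0.0644 with only the arrays of the experiment. Without chow A, B or C it was 0.224, 0.0836 and 0.143. At 10 mg for 2 days, 5 of 10 other settings called it and 0 of 6 that left out 1 array did (adjusted p 0.0567 to 0.221).

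The number of all tested genes called moved more: at 10 mg for 2 days it was 56 as reported, 612 with array weights and 13 with no variance trend, and at 10 mg for 14 days 30, 257 and 0. In the average it was 48, 266 and 28, and 3, 11 and 1 without chow A, B and C. In P465L against WT it was 2 as reported and 0 to 6 under the other settings. In WT against chow it was 720, and 279 to 1036 under the others.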
